A study of Mus musculus with 4 samples.

Results

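The 39 protein-coding Hox genes of the mouse lie in 4 clusters, and 66 of the 128055 accessible regions (peaks) measured in bone mesenchymal stem cells (MSCs) fell within or beside them. A peak was counted where it overlapped the span from 5 kb upstream to 5 kb past the end of a Hox gene in the GENCODE M21 annotation (build mm10). The Hoxa cluster held 18 of these peaks, the Hoxb cluster 9, the Hoxc cluster 18 and the Hoxd cluster 21. They are named here by cluster and by order of position on the chromosome. They were chosen by position among the peaks detected in these libraries, with earlier results of these data known.

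The assay was ATAC-seq, which tags DNA that is not packed away with the adapters carried by the transposase Tn5. The cells came from crushed bones of wild-type male C57BL/6N mice of 3 to 5 months, and the study's methods call the 2 libraries of each group independent experiments. All cells grew out at 2% O2 and were sorted as CD45-, Ter-119-, CD140a+ and Sca-1+ cells. They were then kept at 2% O2 (hypoxia, 2 libraries) or moved to 21% O2 (normoxia, 2 libraries) before the assay, so the normoxia cells share the early hypoxic culture. The paper states that the sorted population was divided between the 2 conditions. The labels do not say from how many animals each library came, nor whether libraries of the same number share animals.

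Hox genes encode homeodomain transcription factors that give cells their position along the body axis. In each cluster the genes stand in order of their paralog number, which groups the descendants of the same ancestral gene in different clusters. Genes with low numbers act near the head and those with high numbers act near the tail, and in the limbs the high-numbered genes of the Hoxa, Hoxc and Hoxd clusters pattern the skeleton. Polycomb complexes keep Hox genes silent and the MLL complexes keep them active, and adult stromal cells are known to retain a Hox pattern of the place from which they came.

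**Figure D1:**
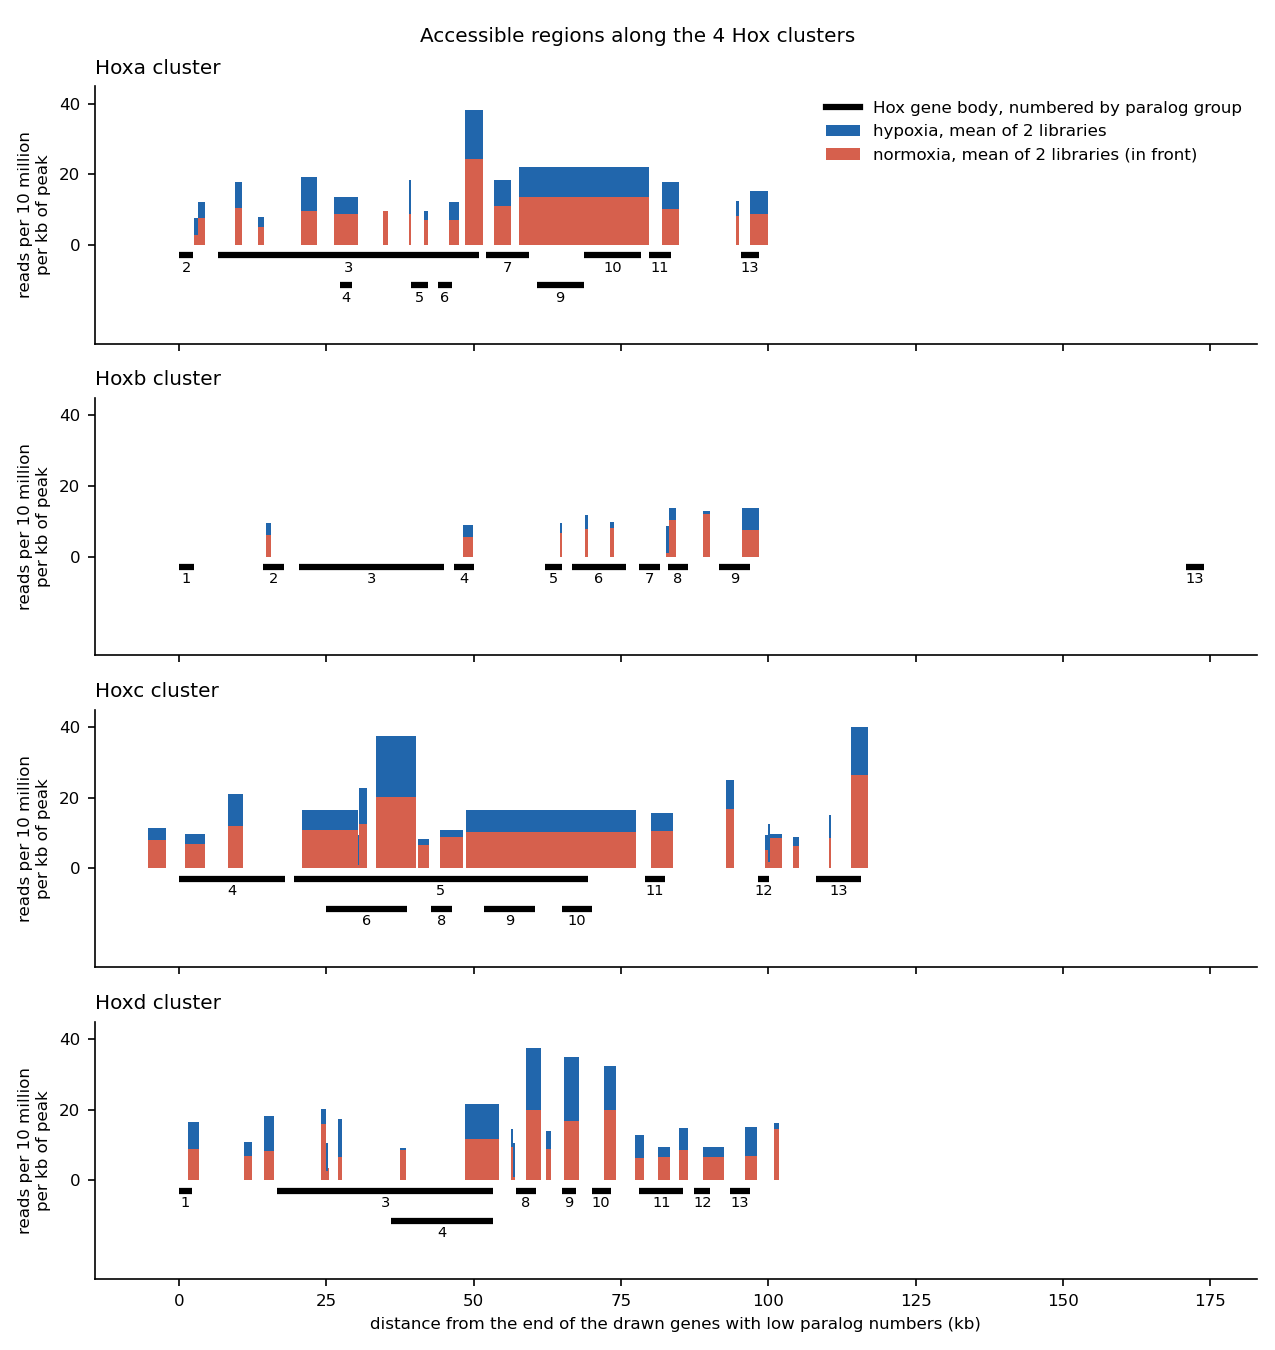
Accessible regions at the reported genes of the Hoxa, Hoxb, Hoxc and Hoxd clusters, with distance in kb on the x axis and signal per kb of peak on the y axis. Each bar is a peak drawn to its width, with the mean of 2 hypoxia libraries in blue and of 2 normoxia libraries in red in front (in Hoxa peak 9 and Hoxd peak 16, where normoxia is higher, red hides blue), and black lines are gene bodies numbered by paralog group. Broad peaks over groups 9 and 10 stand in Hoxa (22.0 kb) and Hoxc (28.7 kb), and the Hoxb cluster holds few and low peaks.

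The clusters differed in how much of their length was open. Peaks covered 59.96% of the 115.75 kb from the first to the last Hoxc gene, 49.1% of the 105.29 kb of Hoxa, 32.6% of the 96.8 kb of Hoxd and 7.24% of the 173.94 kb of Hoxb. Hoxb13 stands far from the rest of its cluster, and without it the open share of Hoxb was 9.24%. The covered length counts peaks detected in either group, 6 of the 66 in hypoxia only, and has no replicate error. A peak had to be detected to be in the table, and lower signal outside the peaks was not measured here.

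A promoter peak, within 1 kb of the start site of a protein-coding transcript, was present at 34 of the 39 Hox genes (87.2%). The share of all protein-coding genes was 69.7%. The 5 genes without one were Hoxb1, Hoxb3, Hoxb7, Hoxb8 and Hoxb13, all of the Hoxb cluster. The start site of Hoxb7 lay 1023 bp from the nearest peak and the start sites of Hoxb8 lay at least 1176 bp away. The distances were 3226 bp for Hoxb3, 12252 bp for Hoxb1 and 48216 bp for Hoxb13. The spans of Hoxb1 and Hoxb13 held no peak at all. Of 62 annotated Hox start sites, 42 were inside a peak.

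RefSeq promoter sequences, from 250 bases before to 50 bases after a start (build GRCm38.p6), were matched for 22 of the 39 Hox genes, in 24 entries. Hoxa9, Hoxa10, Hoxd9 and Hoxd10 are shown as examples of entries wholly inside peaks of high-numbered genes. Hoxb1 and Hoxb8 are examples of entries that overlapped no peak. Other entries met the same conditions and are not shown. Capitals mark CG dinucleotides.
Hoxa9, chr6:52227321-52227620, minus strand: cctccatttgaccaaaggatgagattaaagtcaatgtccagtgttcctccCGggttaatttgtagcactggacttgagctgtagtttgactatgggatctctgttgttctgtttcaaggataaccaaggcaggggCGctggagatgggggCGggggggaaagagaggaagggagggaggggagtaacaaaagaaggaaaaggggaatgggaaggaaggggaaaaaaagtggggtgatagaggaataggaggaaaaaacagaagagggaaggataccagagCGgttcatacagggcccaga
Hoxa10, chr6:52240805-52241104, minus strand: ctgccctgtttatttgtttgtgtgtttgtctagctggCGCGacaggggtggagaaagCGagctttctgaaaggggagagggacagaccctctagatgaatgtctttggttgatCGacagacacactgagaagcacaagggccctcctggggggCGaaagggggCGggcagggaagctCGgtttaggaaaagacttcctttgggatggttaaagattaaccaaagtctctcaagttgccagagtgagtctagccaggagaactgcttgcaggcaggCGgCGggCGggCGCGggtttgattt
Hoxd9, chr2:74697513-74697812, plus strand: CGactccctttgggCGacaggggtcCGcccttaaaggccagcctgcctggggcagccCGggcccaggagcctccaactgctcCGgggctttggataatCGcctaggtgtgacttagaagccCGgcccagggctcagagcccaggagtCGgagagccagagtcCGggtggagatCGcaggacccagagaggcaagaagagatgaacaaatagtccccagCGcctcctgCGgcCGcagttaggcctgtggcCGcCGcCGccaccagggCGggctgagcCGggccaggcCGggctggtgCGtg
Hoxd10, chr2:74691641-74691940, plus strand: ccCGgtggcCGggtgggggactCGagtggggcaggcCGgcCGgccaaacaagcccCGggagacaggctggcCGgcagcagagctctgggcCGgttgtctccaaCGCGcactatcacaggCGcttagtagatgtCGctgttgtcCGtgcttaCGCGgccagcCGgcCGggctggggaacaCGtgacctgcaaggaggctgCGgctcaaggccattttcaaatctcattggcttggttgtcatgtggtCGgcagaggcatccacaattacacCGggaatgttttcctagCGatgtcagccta
Hoxb1, chr11:96365508-96365807, plus strand: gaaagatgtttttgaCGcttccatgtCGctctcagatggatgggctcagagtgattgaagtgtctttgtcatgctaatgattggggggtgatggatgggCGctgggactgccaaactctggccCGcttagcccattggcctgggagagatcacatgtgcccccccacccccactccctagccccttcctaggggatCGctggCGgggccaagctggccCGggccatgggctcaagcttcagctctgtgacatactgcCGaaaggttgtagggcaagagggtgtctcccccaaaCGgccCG
Hoxb8, chr11:96281655-96281954, plus strand: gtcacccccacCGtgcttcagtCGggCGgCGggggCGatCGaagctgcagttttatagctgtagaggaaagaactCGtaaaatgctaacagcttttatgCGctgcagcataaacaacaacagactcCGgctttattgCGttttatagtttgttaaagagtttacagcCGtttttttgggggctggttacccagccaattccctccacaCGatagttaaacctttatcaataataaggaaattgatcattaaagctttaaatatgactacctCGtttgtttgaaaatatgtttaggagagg

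The promoters with and without a peak overlapped in their number of CG dinucleotides. The Hoxa9 window held 4, the Hoxb1 window 10, the Hoxa10 window 12 and the Hoxb8 window 13, whereas the Hoxd9 window held 20 and the Hoxd10 window 22. The median over the 21 Hox entries that overlapped a peak was 20, against 7 over all 32851 RefSeq entries. The 3 Hox entries with no peak, at Hoxb1, Hoxb8 and 1 start of Hoxd4, held between 4 and 13.

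Short motifs were counted on both strands of the same windows. The hypoxia-inducible factor core ACGTG was in 7 of the 24 Hox entries (29.2%) and in 19.6% of all entries, the core TTTAT of high-numbered Hox proteins in 9 (37.5%) and in 40.01%, and the Pbx-Hox sequence TGATTNAT in 2 (8.33%) and in 3.22%. ACGTG was in the Hoxd10 window and in none of the Hoxa9, Hoxa10, Hoxd9, Hoxb1 and Hoxb8 windows shown above. The other entries with ACGTG were at Hoxa11, Hoxd1, Hoxd4, Hoxd11 and Hoxd13. These are matches of letters and say nothing of binding.

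The clusters also carry microRNA genes, whose products repress other messengers, Hox messengers among them. Of 6 such hairpins, 3 were inside peaks and 3 were not. Mir196b lay in the broad Hoxa peak, Mir196a-2 in the broad Hoxc peak and Mir615 in the Hoxc5 and Hoxc6 promoter peak. Mir196a-1 lay 3164 bp and Mir10a 1027 bp from the nearest peak in Hoxb, and Mir10b lay 564 bp from one in Hoxd. The mature 5p forms of the 196 and 10 families and miR-615-3p are given from RefSeq with the seed (bases 2 to 8) in capitals, which shows that the 3 copies of the 196 family share a seed although only Mir196a-2 and Mir196b were in open regions.
mmu-miR-196a-5p: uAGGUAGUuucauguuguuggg
mmu-miR-196b-5p: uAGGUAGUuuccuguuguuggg
mmu-miR-10a-5p: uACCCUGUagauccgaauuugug
mmu-miR-10b-5p: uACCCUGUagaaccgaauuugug
mmu-miR-615-3p: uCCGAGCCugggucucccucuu

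Long non-coding RNA genes of the clusters differed likewise. The start of Haglr lay in the Hoxd1 promoter peak, and the start of Hoxd3os1 lay in the promoter peak of Hoxd3. Hoxa11os overlapped the Hoxa11 promoter peak. Hotair and Hottip overlapped no peak, at 62 bp and 475 bp from the nearest. For Hotair, on the minus strand, this distance is from the end of the gene and not its start. For Hottip it is from the start.

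The values are reads per peak scaled to a library total of 10000000 reads and are not divided by peak width, so levels were compared only per kb of peak. Summed over its peaks, Hoxa had a level of 21.5 ± 0.189 per kb in hypoxia and 13.0 ± 0.0645 in normoxia (SD, n = 2 here and below). Hoxd had 19.4 ± 1.19 and 10.9 ± 0.881, Hoxc 18.4 ± 0.604 and 11.5 ± 0.101, and Hoxb 11.7 ± 0.0895 and 7.74 ± 0.878. Hoxb was lowest in all 4 libraries. Hoxa and Hoxd overlapped in neither group, and Hoxd and Hoxc overlapped in both. Levels here are as deposited, a scale on which 81.2% of all peaks had a lower fitted value in normoxia. Summed over all peaks, mitochondrial ones included, the level was 31.0 ± 1.97 per kb in hypoxia and 18.2 ± 1.84 in normoxia. Overlap of the groups at single peaks below is judged as deposited, where both normoxia values were below both hypoxia values in 59.5% of all peaks.

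**Figure D2:**
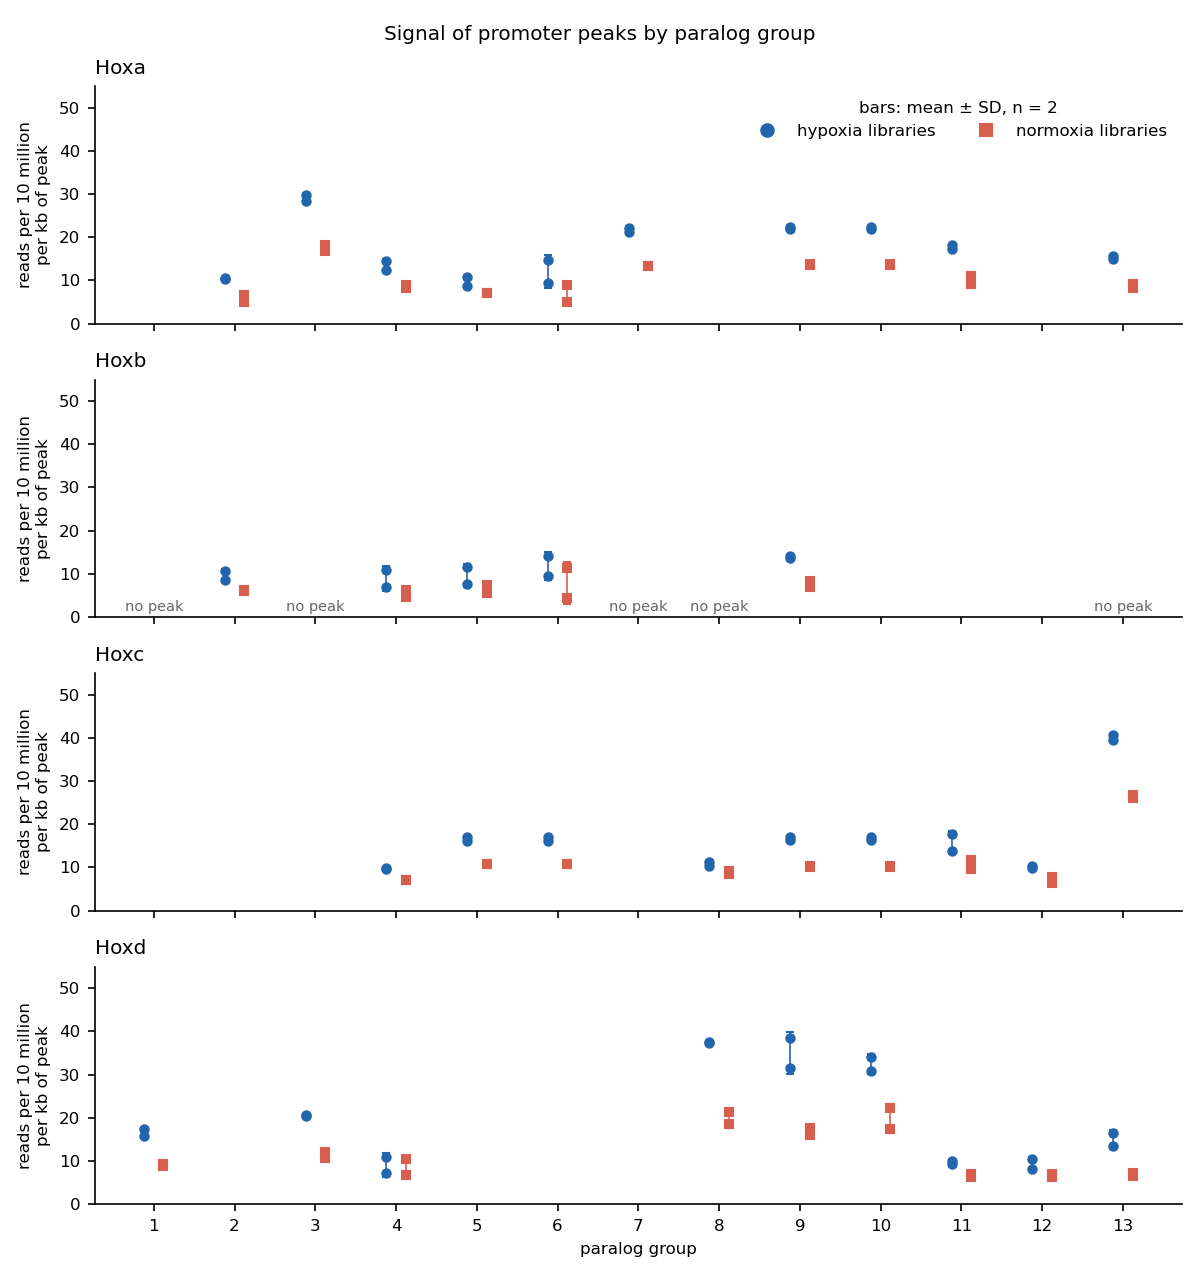
Signal of promoter peaks per kb of peak (y axis) by paralog group (x axis) in each cluster, with 1 point per library and the mean ± SD (n = 2) of hypoxia in blue and normoxia in red. Of the 33 genes plotted, Hoxc13, Hoxd8, Hoxd10, Hoxd9 and Hoxa3 are the 5 above 20 in the mean of all libraries, and 5 Hoxb genes have no promoter peak.

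Promoter levels did not follow the paralog number in a single direction. Averaged over the 4 libraries, those of the 33 genes reported here ran from 7.18 per kb at Hoxb4 to 33.2 at Hoxc13, a 4.63-fold range with a median of 12. Genes that share a promoter peak, such as Hoxc9 and Hoxc10, share its signal and are not separate measurements. The order began with Hoxc13, Hoxd8, Hoxd10, Hoxd9 and Hoxa3. Within paralog group 13 the levels spanned 3.03-fold, from Hoxd13 to Hoxc13, and within group 8 they spanned 2.92-fold, from Hoxc8 to Hoxd8. In groups 2 and 12 the 2 measured genes were within 1.04-fold and 1.08-fold of each other.

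Hoxa held low promoters beside higher ones. Hoxa2, Hoxa4, Hoxa5 and Hoxa6 were low, between 8.15 and 11 per kb, and Hoxa7 had 17.5. The Hoxa7 level pools 2 promoter peaks and comes mostly from the broad peak shared with Hoxa9 and Hoxa10. Its other promoter peak, Hoxa peak 14, had 14.7 per kb. Hoxa3, at 23.3 per kb, has a pair of promoter peaks, of which the outer lies beside Hoxa7.

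The widest Hoxa peak was a continuous open domain over groups 9 and 10. Hoxa peak 15 (chr6:52220101-52242100) was 22000 bp wide, rank 71 in width of all 128055 peaks, and covered the whole bodies of Hoxa9 and Hoxa10 and a promoter of Hoxa7. Its values were 492.6 and 480.7 under hypoxia and 300.6 and 300.7 under normoxia, from 802 to 1414 reads per library. All hypoxia values were above all normoxia values, but the log2 change of normoxia over hypoxia, after scaling by relative log expression (RLE), was -0.22 ± 0.09 (SE) and did not pass the threshold of 0.01 (limma adjusted p = 0.118). It turned to 0.25 under cyclic loess, 0.14 under quantile and 0.075 under equal-total scaling. Hoxa11, needed for the forearm skeleton, had a separate peak with 17.7 ± 0.597 per kb in hypoxia and 10.2 ± 1.35 in normoxia. Hoxa13, needed for the digits, had 15.3 ± 0.596 and 8.68 ± 0.795.

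Hoxb had the smallest covered share, and its peaks were narrow, from 400 to 2800 bp. The widest was the Hoxb9 promoter peak (chr11:96269901-96272700), with values of 39.3 and 38.4 under hypoxia and 19.5 and 23.4 under normoxia and a log2 change of -0.37 ± 0.19 (limma adjusted p = 0.188). The groups did not overlap there. The highest level per kb was in Hoxb peak 2, an intergenic peak of 1200 bp between Hoxb9 and Hoxb8, with values of 17.7 and 13.3 under hypoxia and 13.87 and 15.02 under normoxia. These overlapped between the groups. Hoxb2, Hoxb4, Hoxb5 and Hoxb6 had promoter peaks of 7.18 to 9.88 per kb.

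Hoxc contained the widest open domain of any cluster. Hoxc peak 9 (chr15:102959401-102988100) was 28700 bp wide, rank 34 of all peaks, and covered the whole bodies of Hoxc9 and Hoxc10 and Mir196a-2. Its values were 468.9 and 486.8 under hypoxia and 296.5 and 292.7 under normoxia. The groups did not overlap, and the log2 change of -0.22 ± 0.09 did not pass the threshold (limma adjusted p = 0.110); it turned to 0.25 under cyclic loess, 0.14 under quantile and 0.072 under equal-total scaling. Per kb, this peak had 16.6 ± 0.443 in hypoxia and 10.3 ± 0.0935 in normoxia, below the 22.1 ± 0.381 and 13.7 ± 0.00288 of Hoxa peak 15 over the same paralog groups, without overlap in either group.

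The ends of Hoxc differed. The promoter peak of Hoxc13, a gene of hair and nail formation, had the highest level of its cluster (chr15:102920001-102922900), with values of 114.3 and 118.0 under hypoxia and 77.6 and 75.8 under normoxia. The normoxia values were lower, but after RLE scaling the log2 change was -0.12 ± 0.13 (limma adjusted p = 0.586). Hoxc4 and Hoxc8 had 8.42 and 9.81 per kb. Hoxc5 and Hoxc6 shared a peak of 9500 bp at 13.7 per kb, and Hoxc11, at 13.2, and Hoxc12, at 8.61, had peaks of their own.

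Hoxc peak 12 (chr15:102996701-103003500) lay over the first exons of non-coding transcripts of the Hoxc6 gene, outside the promoter windows of the protein-coding transcripts. It had 250.9 and 260.8 under hypoxia and 134.9 and 141.5 under normoxia. No value overlapped. Its log2 change was -0.41 ± 0.11 with a limma adjusted p of 0.0103, just above the threshold of 0.01. The adjusted p was 0.0063 by the edgeR quasi-likelihood test on recovered reads, 0.0073 by edgeR on the deposited values and 0.0105 by DESeq2. By limma without its trend and robust settings, the adjusted p was 0.236. The change shrank to -0.12 under equal-total scaling (limma adjusted p = 0.403), -0.054 under quantile (0.795) and -0.047 under cyclic loess (0.822).

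In Hoxd the levels peaked in the middle, over Hoxd8, Hoxd9 and Hoxd10. The Hoxd9 promoter peak (Hoxd peak 8, chr2:74697201-74699900), which holds the Hoxd9 sequence shown above, had values of 103.7 and 85.3 under hypoxia and 43.1 and 47.7 under normoxia. Both normoxia values were below both hypoxia values as deposited, as in 59.5% of all peaks. The same held after RLE scaling, as in 29.6% of all peaks. The log2 change was -0.57 ± 0.15, with an adjusted p of 0.0102 by limma and 0.199 by limma without its trend and robust settings. The adjusted p was 0.0032 by the edgeR quasi-likelihood test on recovered reads, 0.0252 by edgeR on the deposited values and 0.0286 by DESeq2. The change shrank to -0.28 under equal-total scaling (limma adjusted p = 0.176), -0.39 under quantile (0.118) and -0.38 under cyclic loess (0.101). Hoxd9 acts in the patterning of the limb and of the trunk.

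The neighbours of Hoxd9 lay close to it in level. The Hoxd8 promoter peak had 97.0 and 97.6 under hypoxia and 48.3 and 55.4 under normoxia, with a log2 change of -0.43 ± 0.14 (limma adjusted p = 0.0359). The Hoxd10 promoter peak had 68.3 and 61.5 under hypoxia and 34.9 and 44.4 under normoxia, with a log2 change of -0.24 ± 0.16 (limma adjusted p = 0.338). Per kb, Hoxd8, Hoxd9 and Hoxd10 had 28.7, 25.9 and 26.1, and each pair of them overlapped in at least 1 of the groups. Hoxd11 and Hoxd12 had 8.07 and 7.94 per kb and Hoxd13, the digit gene, had 10.97.

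On the other side of Hoxd, the Hoxd3 peak at its only start inside a peak was the widest of the cluster, with 5700 bp. It had 126.0 and 120.7 under hypoxia and 60.7 and 71.4 under normoxia, without overlap, and a log2 change of -0.42 ± 0.13 (limma adjusted p = 0.0286). The Hoxd4 promoter peak was weak and its groups overlapped, with 9.91 and 6.46 under hypoxia and 5.997 and 9.344 under normoxia. Hoxd1 had 16.6 ± 1.17 per kb in hypoxia and 9.01 ± 0.371 in normoxia.

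**Figure D3:**
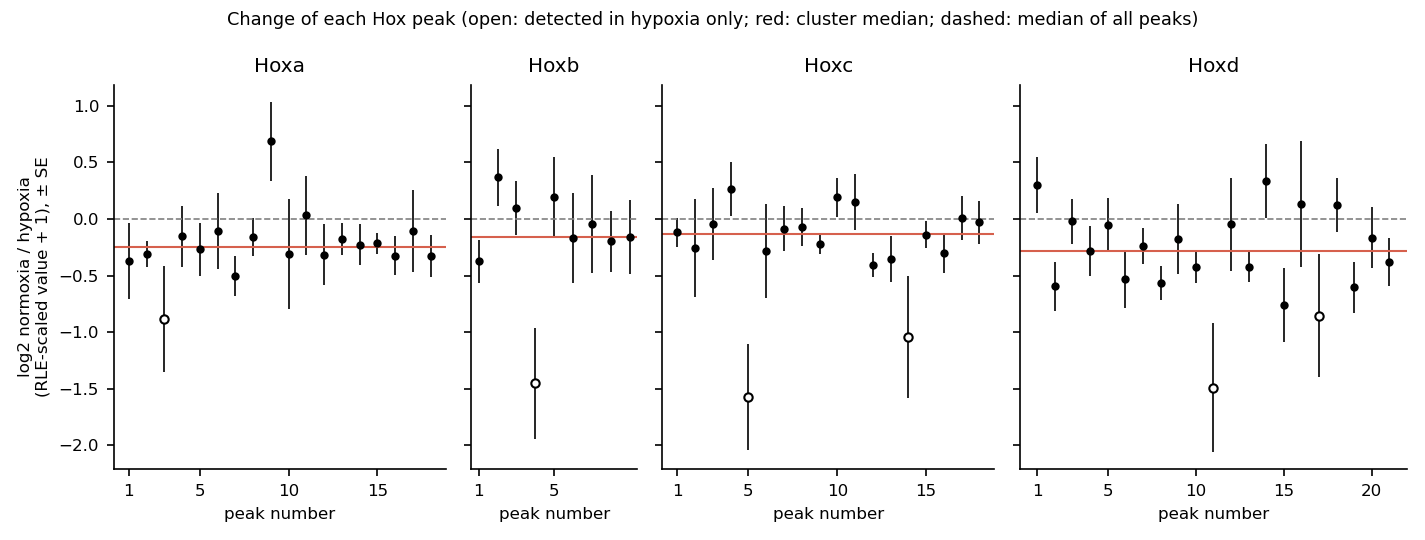
Log2 ratio of normoxia over hypoxia with its SE for each of the 66 Hox peaks (RLE-scaled value + 1, limma), in order of position on the chromosome. Open points are the 6 peaks detected in hypoxia only, the red line is the cluster median and the dashed line the median of all peaks (-0.0040); most points are below 0 and no peak passed the threshold.

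The comparison of the groups asked whether a week at 21% O2 changed the openness of these regions. None of the 66 Hox peaks was called lower or higher in normoxia by limma at a false discovery rate (FDR) under 0.01, whereas 4.57% of all 128055 peaks were called lower and 1.77% higher. At an unadjusted p under 0.05, 15 Hox peaks were lower and 0 higher, against 16.8% and 12.5% of all peaks. Of these 15, 8 were in Hoxd, 3 in Hoxa, 3 in Hoxc and 1 in Hoxb. Hoxb peak 4, Hoxc peak 5 and Hoxd peak 11 are among them. These peaks were detected in hypoxia only, which already fixes a lower normoxia value. The edgeR quasi-likelihood test on recovered reads called 2 lower, Hoxc peak 12 and the Hoxd9 promoter peak, and DESeq2 called 0. The shares of all peaks called by these tests are not given here, so their counts could not be set beside them. Of the 40 Hox peaks at a promoter of any protein-coding gene 0 were called lower, against 16.7% of all promoter peaks. Of the 8 Hox peaks in the strongest 10% of all peaks by mean value 0 were called lower, against 28.4% of all peaks of that strength.

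The direction was mostly the same. After RLE scaling 53 of 66 Hox peaks (80.3%) had a lower fitted value in normoxia, against 50.4% of all peaks. The median log2 change was -0.21, against -0.0040 for all peaks, and by cluster it was -0.25 in Hoxa, -0.16 in Hoxb, -0.13 in Hoxc and -0.28 in Hoxd. Over the 39 Hox promoter peaks the median was -0.22, against -0.27 over all 17661 promoter peaks. Under equal-total scaling the medians of all Hox peaks, Hoxa, Hoxb and Hoxc rose above 0, to 0.071, 0.032, 0.10 and 0.16, and the median of all peaks moved to 0.26. In 30 Hox peaks both scaled normoxia values were below both hypoxia values (29.6% of all peaks) and in 5 both were above (27.4%). The 66 peaks behind these counts and medians include the 6 detected in hypoxia only, where a lower normoxia value was fixed by detection.

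**Figure D4:**
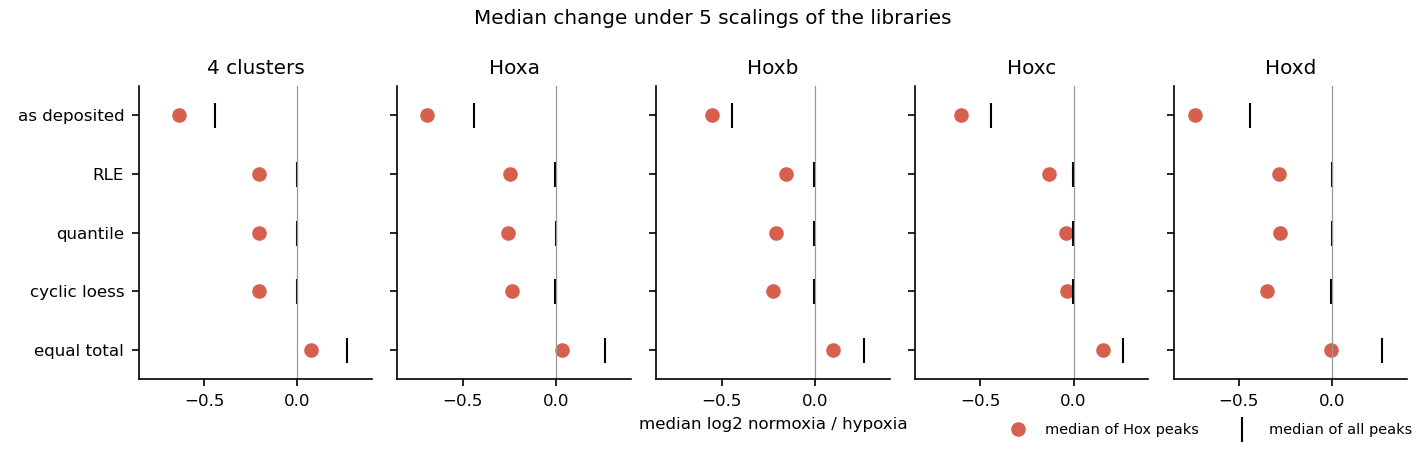
Median log2 ratio of normoxia over hypoxia (x axis) of all Hox peaks and of each cluster under 5 scalings of the libraries (y axis). Red points are medians of Hox peaks and black marks are medians of all peaks; the Hox median lies to the left of the black mark in each of these panels and scalings, and for all Hox peaks as deposited it is -0.64 against -0.44.

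The values as deposited, scaled to library totals alone, were lower in normoxia in most peaks (81.2% of all peaks by fitted value). On this scale the median log2 change was -0.64 for Hox peaks and -0.44 for all peaks. In 27 of 66 Hox peaks limma called a fall (10 in Hoxd, 8 in Hoxa, 7 in Hoxc and 2 in Hoxb), beside 24.0% of all peaks. In 56 Hox peaks both normoxia values were below both hypoxia values, beside 59.5% of all peaks. Both counts include peaks detected in hypoxia only. The number of calls therefore depended on whether the drop shared by most peaks was removed.

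The medians per library were compared as single values. The median RLE-scaled log2 value of the Hox peaks minus that of all peaks was 0.36 and 0.20 under hypoxia and 0.12 and 0.07 under normoxia, a difference of -0.18 with a pooled SD of 0.09. The groups did not overlap, but an exact permutation test of 2 against 2 libraries cannot go below p = 0.333, the value it gave. The Hox peaks took 668 and 617 parts in 1000000 of the signal in nuclear peaks under hypoxia and 636 and 572 under normoxia, which overlapped (exact permutation p = 0.667, two-sided).

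With 2 libraries a group, no test could show that a cluster changed differently from another. Hoxd took 139 and 118 parts in 1000000 of nuclear peak signal under hypoxia and 112 and 110 under normoxia, without overlap (exact permutation p = 0.333). As a share of all Hox signal, however, Hoxd had 20.8% and 19.1% under hypoxia and 17.6% and 19.3% under normoxia, which overlapped (exact permutation p = 0.667). Hoxb had 3.51% and 3.55% under hypoxia and 3.57% and 4.11% under normoxia, higher without overlap, at the smallest p of the design (exact permutation p = 0.333). In the 6 pairs of clusters, the difference of their scaled log2 medians changed most between Hoxa and Hoxd, from 0.12 to -0.10, with a pooled SD of 0.10 and the smallest p of the design (exact permutation, p = 0.333).

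**Figure D5:**
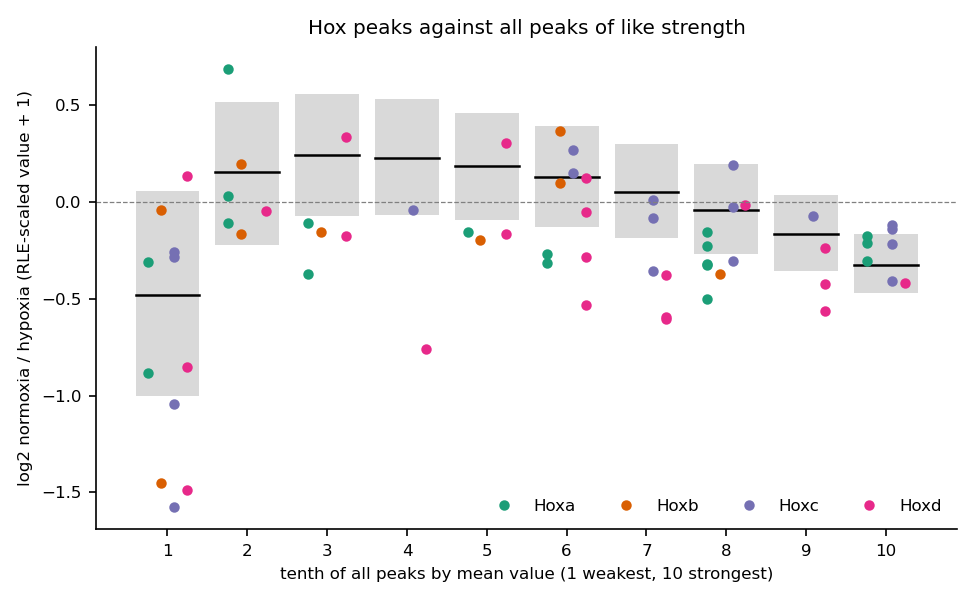
Log2 ratio of normoxia over hypoxia (y axis) of the Hox peaks, as coloured points by cluster, in 10 equal bins of all peaks by mean value (x axis). Grey boxes span the middle 50 percent of all peaks and black lines their medians; 44 of 66 Hox peaks are below the line of their bin, and 2 of 8 in the strongest bin.

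The change of a peak varied with its strength across the whole table, and the Hox peaks were therefore read beside peaks of like value. In the strongest of 10 equal bins by mean value the Hox median was -0.22 and the median of all peaks -0.33, with 2 of 8 Hox peaks below the latter. In bin 7 it was -0.37 against 0.05, and 6 of 6 Hox peaks were below. Over all bins 44 of 66 Hox peaks (66.7%) were below the median of their bin and 35 (53.0%) were within its middle 50 percent.

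The 6 peaks detected in hypoxia only were short, from 200 to 700 bp, and each adjoined another Hox peak without a gap. They had 3 to 21 reads in a hypoxia library and 0 to 9 in a normoxia library. An example is Hoxc peak 5 at the start of Hoxc12, with values of 5.31 and 4.76 under hypoxia and 0.3748 and 1.001 under normoxia. Detection in hypoxia and not in normoxia already fixes a lower normoxia value, so their fitted log2 changes, from -1.58 to -0.85, are given as a description, and they rested on few reads. The 6 were 9.09% of the Hox peaks, beside 6.84% of all peaks. All 6 are among the 66 peaks of the counts and medians above. No Hox peak was detected in normoxia only, and only 10 of all 128055 peaks were.

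Genes that act on or with Hox genes were examined at their promoters. All 9 TALE cofactor genes, which encode the Pbx, Meis and Pknox partners of Hox proteins on DNA, had a promoter peak, and 4 of their 10 peaks were called lower in normoxia and 0 higher, with a median log2 change of -0.38. Meis1 had 345.4 and 391.3 under hypoxia and 168.3 and 180.9 under normoxia, with a log2 change of -0.59 ± 0.10 (limma adjusted p = 0.000193). The other 3 were Meis2 (-0.60), Pbx3 (-0.54) and Pknox2 (-0.45). Of the 39 Hox promoter peaks 0 were called, with a median of -0.22. The median value was 169.7 for the TALE peaks and 27.8 for the Hox promoter peaks. The former lies in the strongest of the 10 bins by mean value. There 28.4% of all peaks were called lower and the median log2 change was -0.33. The difference between these lists was not tested.

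The repressors and activators of Hox chromatin were lower at some promoters. Of 36 promoter peaks of 28 Polycomb genes, 7 were called lower and 0 higher (median -0.38), the 4 largest being Bmi1 (-0.74), Pcgf5 (-0.62), Yaf2 (-0.56) and Eed (-0.52), which belong to either Polycomb complex. Of 13 peaks of 11 genes for the MLL complexes and the H3K27 demethylases, 1 was called lower, at the demethylase gene Kdm6a (-0.49), and 0 higher. Of 14 peaks for retinoic acid signalling, Cdx factors and Gdf11, which set Hox expression in the embryo, 3 were called lower, at the receptor genes Rara (-0.61) and Rarg (-0.55 and -0.46), and 0 higher. Genes beside the clusters gave 2 of 12, Lnpk (-0.84) next to Hoxd and Cbx5 (-0.42) next to Hoxc. These shares stand beside the 16.7% of all promoter peaks. The median values of the Polycomb, MLL and retinoic acid lists, 104.1, 87.1 and 105.5, lay in the strongest bin, where the share of all peaks was 28.4%.

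Other developmental homeobox and T-box genes outside the clusters resembled the Hox genes in level. Their 112 promoter peaks had a median of 11.3 per kb, the 39 Hox promoter peaks 10.97 and all 17661 promoter peaks 24.0. Of the 112, 11 were called lower (9.82%) and 0 higher, with a median log2 change of -0.29. Of all promoter peaks 16.7% were called lower, with a median of -0.27.

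The labelled cell type was checked at marker promoters. Of 10 genes of the sort and of stromal cells 9 had a promoter peak, the exception being Lepr. Of the 7 blood genes reported here 1 did, Spi1, and Ptprc, which encodes CD45, did not. The values of the Spi1 peak were 14.9 and 10.2 under hypoxia and 7.87 and 13.02 under normoxia. Of 4 endothelial genes 3 had a promoter peak, with summed values of 92.7 and 96.6 under hypoxia and 58.5 and 75.4 under normoxia. These counts stand beside the 69.7% of all protein-coding genes with a promoter peak. Other cells' part in the Hox values was not tested, and fewer open cells cannot be told apart from less access per cell in these bulk samples.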

How the data were processed

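The authors aligned reads to mm10 with Bowtie2, removed duplicates with Picard and called 1 peak set over both groups with chromstaR. The deposited signal per peak, called RPKM by the authors, is reads scaled to a library total of 10000000 and is not divided by width. In every library 100% of values gave whole reads (tolerance 0.01), with totals of 26680936 to 29965523 reads, and a read can count in more than 1 bin, so precision from reads is a lower limit of the error.

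Promoters were 1 kb either side of starts of protein-coding GENCODE transcripts. limma 3.58.1 (trend, robust, two-sided) was fitted to log2(value / RLE size factor + 1) over all peaks, with Benjamini-Hochberg adjustment. Alternatives were other scalings, pseudocounts and filters, other spans, limma without trend and robust settings, a replicate block, edgeR 4.0.16, DESeq2 1.42.0 and leaving out a library. Named were all Hox promoter peaks, called peaks, the widest and highest peak of each cluster and up to 4 called regulators of each list. Seeds, motifs and Hoxc peak 5 were described besides. Members and lists were chosen with earlier results of these data known. p-values rest on the spread between the libraries, and those of limma also on a variance trend shared over all peaks. Values of 1 Hox gene and 1 marker gene are not reported here, though counts and medians over peaks include them.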

Additional observations from a re-analysis of the deposited data

How the results depend on the processing

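Calls among the 66 Hox peaks lay near the threshold and rested on 2 libraries a group. The shares of all peaks called are given only for limma with RLE scaling at an FDR under 0.01 and as deposited. The number called lower, 0 with RLE scaling, was 27 with the values as deposited, 6 at an FDR under 0.05 (2 of them detected in hypoxia only), 2 after a filter on mean values under 5, 2 with edgeR on recovered reads, 1 with edgeR on the deposited values, 1 with a pseudocount of 5, and 0 to 1 with a library left out (Hoxc peak 12 without either normoxia library); in 11 of 20 alternatives it stayed at 0, and none was called higher in any. The main fit treated the libraries as unpaired. Libraries of the same number showed no shared deviation over the peaks (correlation 0.011), but with 2 libraries a group this cannot exclude pairing. With the replicate block 2 were called lower, Hoxc peak 12 and the Hoxd9 promoter peak.

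The Hox median of -0.21 moved to -0.64 as deposited and 0.071 with equal totals, and ranged from -0.30 to -0.15 with a library left out. In the same order the medians were -0.69, 0.032 and -0.31 to -0.12 for Hoxa, -0.55, 0.10 and -0.31 to 0.052 for Hoxb (0.052 without normoxia library 1), -0.60, 0.16 and -0.18 to -0.11 for Hoxc, and -0.74, -0.0078 and -0.37 to -0.31 for Hoxd. The Hoxc median of -0.13 also moved to -0.039 with quantile normalization, -0.035 with cyclic loess and -0.24 over gene bodies alone. Hoxa peak 15 and Hoxc peak 9 reversed to 0.075 and 0.072 with equal totals, 0.14 and 0.14 with quantile normalization and 0.25 and 0.25 with cyclic loess; the cause was not tested. In 13 Hox peaks a library had under 10 reads, where changes were not well measured at this depth.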
